A study of Mus musculus with 23 samples.

Results

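A set of 10 genes that mark disease-associated microglia and lipid-handling phagocytes was followed across mouse libraries labelled as group 2 innate lymphoid cells (ILC2s) before and after transfer into mice with ischemic stroke. The set was defined by name: Apoe, Trem2, Tyrobp, Gpnmb, Cst7, Lpl, Itgax, Axl, Clec7a and Abca1. Of these, 9 have a row among the 19945 genes of the deposited table, and Itgax, the integrin chain CD11c, was not analysed here. All 9 passed the filter on low values (10 or more normalized counts in 5 or more of the 23 libraries), and each symbol has 1 gene entry in GENCODE M21.

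The donors were male transgenic and wild-type mice of 8 to 10 weeks on the B6.Cg-Tg(CAG-GFP)Smoc background, which carries green fluorescent protein under the ubiquitous CAG promoter. IL-33 was given into the peritoneum at 2-day intervals for 7 days. Cells of the marrow and spleen lacking lineage markers and carrying CD25 were enriched on magnetic beads, and grown for 14 days with IL-33 plus the cytokines IL-2, IL-15 and IL-7. After that culture, CD45+Lin-ST2+KLRG1+CD127+ cells were sorted and given intravenously, with a delay of 6 hours from occlusion of the middle cerebral artery (MCAO), a surgical stroke model. The 4 groups were cells straight from culture (5 libraries, without MCAO or transfer), and transferred cells taken back from day 1 blood, day 5 blood and day 5 brain, with 6 libraries for each. How the cells were isolated again from blood and brain, and whether each library came from a separate animal, is not given in the sources used here, so p-values measure the spread between these libraries, which may be technical.

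Disease-associated microglia are a state that brain macrophages enter near plaques, dying cells and damaged myelin. TREM2 on the cell surface binds lipids and apolipoproteins, including APOE, and signals through the adaptor TYROBP (DAP12) to the kinase SYK. Cells in this state raise genes for lipid uptake, lysosomal breakdown and cholesterol export while genes of resting microglia fall, and in stroke such phagocytes clear debris and myelin. ILC2s are lymphocytes, and most of these genes are known from phagocytes. CST7 is an exception, since cytotoxic lymphocytes also make it.

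The labelled cell type was checked against its markers before the levels of the 9 genes were read. In the brain-labelled libraries Klrg1, a receptor used in the sort, had a mean normalized count of 9.40 against 23914 in culture, and Ptprc, which encodes CD45, had 1595 against 16277. The 13 measured ILC2 identity genes together made up 0.0240 to 0.0458% of each brain library and 0.419 to 0.590% of each culture library. Of the 12 tested, 3 were higher and 7 lower in brain than in culture at an adjusted p below 0.05 (limma). Over all genes tested, 37.5% were higher and 11.7% lower there. In each blood group 4 were higher and 3 lower than in culture. Klrg1 and Ptprc were named after their values were seen. Of the other sort genes, Il7r, which encodes CD127, and the brain level of Il1rl1 are not given here. Il1rl1, which encodes the sorted receptor ST2, was at a mean of 1.08 in culture and 125 in blood on day 5, so the culture libraries also lacked a defining marker. Homeostatic microglia genes (15 measured) summed to 0.822 to 2.18% of the brain libraries, with none at 0, against 0.128 to 0.293% in culture, where Sall1 was at 0 in all 5 libraries. Selplg, at a mean of 33264, carried most of the culture sum. Choroid plexus genes reached 1.54 to 7.94% in brain, and astrocyte genes 0.152 to 0.345%. Blood libraries held dendritic cell genes at 0.370 to 2.34%, platelet genes at 0.204 to 5.85%, B cell genes at 0.121 to 1.08%, and macrophage and monocyte genes at 0.251 to 0.583% against 0.0454 to 0.156% in culture. Pf4 is in both the platelet list and the macrophage and monocyte list, so these sums are not independent. Blood day 1 replicate 2 was the highest blood library for both. The dendritic cell list holds MHC class II genes, as given below. Neutrophil genes made up 0.0857 to 0.683% of blood day 1 and 0.305 to 3.37% of blood day 5, highest in blood day 5 replicate 6, which was also the highest of its group for Apoe, Axl and Clec7a. The part of these cells in the members' levels was not tested. Levels below belong to the libraries as labelled, and whether they came from transferred cells was not tested. In bulk RNA, fewer cells of a type and less RNA per cell cannot be told apart. Depth was 11.6 to 58.1 M recovered reads, lower in batch 1 (11.6 to 16.9 M) than in batch 2 (27.8 to 58.1 M), and both batches held all 4 groups. Culture replicates 1, 2 and 3 were close to each other in recovered reads, with a chi-square per degree of freedom of 4.19 to 12.5. Other culture pairs had 875 to 1300. Whether these 3 are separate samples is not given. If they are not, tests against culture rest on fewer than 5 independent libraries. Blood day 1 replicate 2 had a normalized total of 4.55e+07, against 1.77e+07 to 2.08e+07 in the rest of its group. Its normalized counts are scaled up accordingly. Culture replicate 5, blood day 1 replicates 2 and 6 and brain replicate 2 were treated as standing apart from their groups, a choice made without a fixed criterion. Without them the number of members called was as before in every comparison. Brain replicate 6 was kept in that set, and leaving it out did change a count, as given below.

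**Figure D1:**
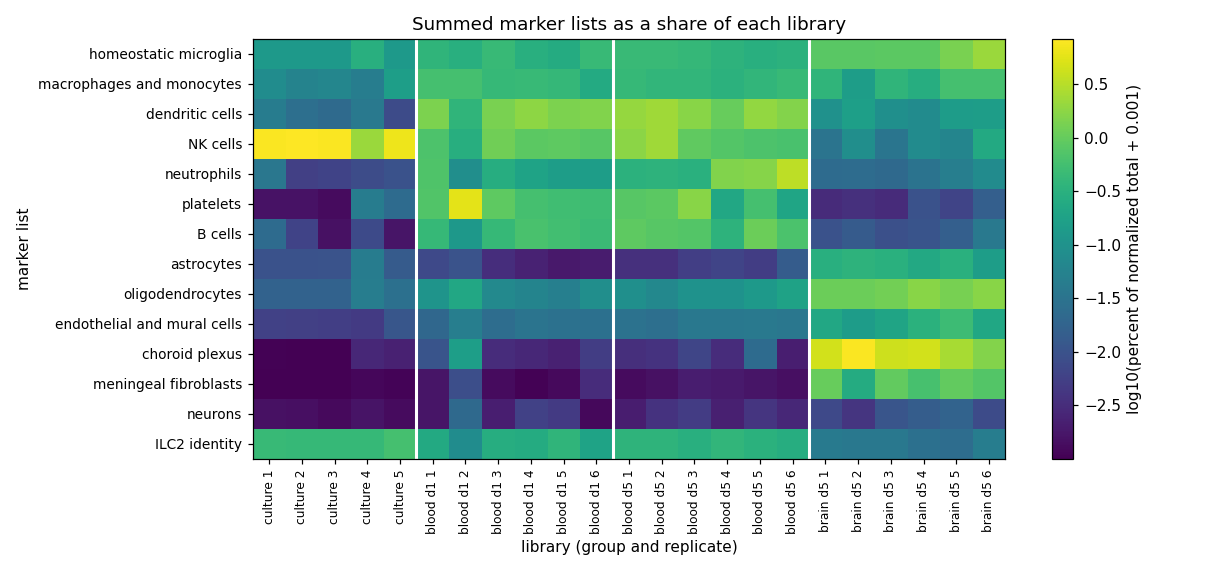
Summed marker lists as a percent of each library's normalized total (colour, log10 scale after adding the small constant given on the colour bar) in 23 libraries, grouped by label. Homeostatic microglia, astrocyte, oligodendrocyte, choroid plexus and fibroblast lists were highest in the brain-labelled libraries, where the ILC2 identity list was lowest, at 0.0240 to 0.0458%.

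The start-site sequences of 3 members are shown because they share the letters TGANTCA, where N is any base, while their levels moved in opposite directions. RefSeq (GRCm38.p6) has windows from 250 bases before to 50 bases after the start for 7 of the 9 genes, 10 windows in all. Tyrobp and Lpl had none. Both strands were searched for the letters GAGGAAGT (PU.1), TGANTCA (AP-1), CACGTG (E-box) and TCATGTG (M-box), which do not contain each other. The AP-1 letters, in capitals below, are in the windows of Trem2 (first base at position -9, with the first transcribed base as 0), Gpnmb (position 8) and Cst7 (position -6). The open base is A in Trem2, C in Gpnmb and T in Cst7, so the stretches are not identical. The label AP-1 here names the open pattern only. The windows are Trem2 chr17:48346151-48346450, Gpnmb chr6:49036268-49036567 and Cst7 chr2:150570165-150570464, all on the plus strand and written 5′ to 3′.
Trem2: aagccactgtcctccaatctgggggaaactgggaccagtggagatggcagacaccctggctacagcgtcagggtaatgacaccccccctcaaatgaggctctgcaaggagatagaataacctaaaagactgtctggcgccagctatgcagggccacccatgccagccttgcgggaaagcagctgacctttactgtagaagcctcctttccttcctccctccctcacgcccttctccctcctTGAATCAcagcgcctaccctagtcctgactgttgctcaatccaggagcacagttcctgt
Gpnmb: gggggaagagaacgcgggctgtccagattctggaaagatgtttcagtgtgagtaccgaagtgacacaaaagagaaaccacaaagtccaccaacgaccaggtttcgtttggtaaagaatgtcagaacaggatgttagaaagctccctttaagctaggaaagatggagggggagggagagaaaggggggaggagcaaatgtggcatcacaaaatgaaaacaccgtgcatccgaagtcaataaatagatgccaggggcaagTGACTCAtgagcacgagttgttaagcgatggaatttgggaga
Cst7: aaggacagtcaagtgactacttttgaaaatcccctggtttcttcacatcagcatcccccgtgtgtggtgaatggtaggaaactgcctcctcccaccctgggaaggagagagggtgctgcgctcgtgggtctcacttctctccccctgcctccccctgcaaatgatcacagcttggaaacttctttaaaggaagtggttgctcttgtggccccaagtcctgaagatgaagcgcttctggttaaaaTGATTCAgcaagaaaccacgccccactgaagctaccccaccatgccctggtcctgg
Abca1 holds the E-box letters at position -147, and the windows of Apoe, Axl and Clec7a hold none of the 4 motifs. Among all 32851 RefSeq windows, 7.81% hold the AP-1 letters, 7.15% the E-box, 3.77% the M-box and 3.2% the PU.1 letters. A match describes the letters only.

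Levels were compared as log2(value + 1) with limma over all genes, with batch in the model, and differences below are on that scale with their standard errors (SE), which understates the change of low genes. A gene rose or fell where its Benjamini-Hochberg adjusted p over 15268 genes was below 0.05. From culture to brain day 5, 8 of 9 members rose and 1 fell, where 49.2% of all genes were called, 37.5% higher and 11.7% lower. All 9 had groups that did not overlap, against 35.6% of all genes. From culture to blood day 1, 7 rose and 2 fell (background 32.1%, with 18.1% higher and 14% lower), and 7 did not overlap (background 17.1%). From culture to blood day 5, 7 rose and 1 fell (background 31.1%, with 19.6% higher and 11.4% lower), again with 7 not overlapping (background 24.7%). Between blood and brain on day 5, 6 members were higher in brain and 0 lower (background 47.9%, with 33.6% higher and 14.3% lower), and 6 did not overlap (background 35.4%). The median member difference from culture was 4.26 in blood day 1, 4.23 in blood day 5 and 6.77 in brain, beside 0.04, 0.14 and 0.67 over all genes tested. These comparisons share groups, so they are not independent.

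**Figure D2:**
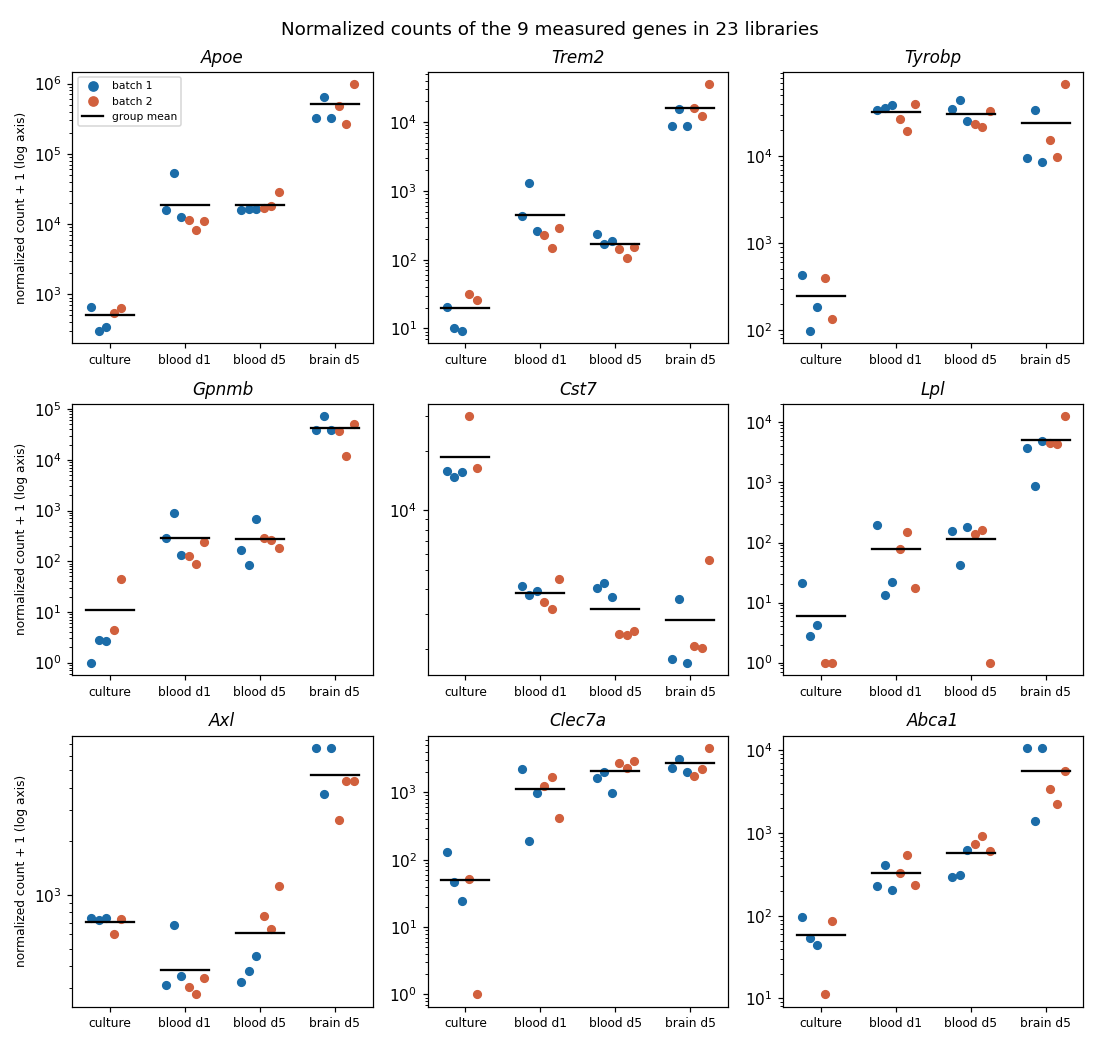
Normalized counts plus 1 (log axis) of the 9 measured genes in each library, coloured by batch, with a bar at the group mean. Apoe, Trem2, Gpnmb, Lpl, Axl and Abca1 were higher in every brain library than in any blood day 5 library, Tyrobp and Clec7a overlapped between blood and brain, and Cst7 was highest in culture.

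Of the receptor and its adaptor, Trem2 was higher in brain than in blood, and Tyrobp was not called between them. Trem2 (chr17:48346401-48354147, plus strand), the lipid-sensing receptor, was at 19.9, 9.13, 8.25, 31.2 and 25.1 normalized counts in culture replicates 1 to 5. It reached 146 (lowest), 273 (median) and 1291 (highest) in blood day 1, and 105, 160 and 238 in blood day 5. In brain it was at 8664, 13896 and 35514. The lowest brain library was thus far above the highest blood library, and every blood library was above culture. The differences from culture were 4.26 ± 0.50 (SE; adjusted p = 5.6e-07) in blood day 1, 3.20 ± 0.50 (2.4e-05) in blood day 5 and 9.67 ± 0.50 (2.7e-13) in brain. Batch 1 and batch 2 alone gave 5.39 and 2.88 for blood day 1, 3.98 and 2.19 for blood day 5, and 9.72 and 9.36 for brain. Brain exceeded blood day 5 by 6.46 ± 0.47 (adjusted p = 8.8e-11), by 5.75 in batch 1 and 7.18 in batch 2. Blood day 1 replicate 2 carried much of its group's mean, which was 440 with it and 270 without it.

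Tyrobp (chr7:30413760-30417585, plus strand), the signalling adaptor that TREM2 and many other myeloid and natural killer receptors use, followed another course. Culture libraries had 428, 96.8, 183, 395 and 134 normalized counts. Blood day 1 ran from 19682 through a median of 34847 to 39768, and blood day 5 from 21562 through 29478 to 44411. Brain ran from 8614 through 12609 to 67447 and overlapped both blood groups. Tyrobp rose over culture by 7.23 ± 0.47 in blood day 1 (adjusted p = 1.2e-10), by 7.14 ± 0.47 in blood day 5 (1.2e-10) and by 6.38 ± 0.47 in brain (1.1e-10). Brain and blood day 5 differed by -0.76 ± 0.45 (adjusted p = 0.178; 95% interval -1.64 to 0.12). This call depended on the scaling and on brain replicate 6. With equal library totals and all libraries kept, Tyrobp was lower in brain by -1.16 (adjusted p = 0.0262). The brain mean was 24164 with it and 15507 without it, and without it the difference was -1.17 (adjusted p = 0.0166). That replicate also had the highest share of homeostatic microglia genes, 2.18% against a group median of 0.868%. Its part in the result was not tested.

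Per kilobase of the longest protein-coding transcript, Trem2 was at 0.00196 to 0.0187 of Tyrobp in single blood libraries and 0.237 to 0.649 in brain libraries. The culture ratio was 0.0234 to 0.0974 at low counts of both. The 3 ranges of the ratio did not overlap.

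Apoe (chr7:19696109-19699188, minus strand), the apolipoprotein that carries cholesterol and is bound by TREM2, was the most abundant member in brain. It had 661, 301, 347, 546 and 643 normalized counts in culture. Its values were 8336, 11948 and 52868 (lowest, median, highest) in blood day 1 and at 15967, 16655 and 28188 in blood day 5. In brain it was at 266811, 406916 and 980483, which is 1.12 to 3.46% of a library and made Apoe rank 3 of 19945 genes by mean. Culture, blood and brain did not overlap. Apoe rose over culture by 4.97 ± 0.40 in blood day 1 (adjusted p = 2.4e-09), 5.26 ± 0.40 in blood day 5 (8.8e-10) and 9.90 ± 0.40 in brain (7.0e-15). The blood day 1 rise was 5.73 in batch 1 and 4.10 in batch 2. Brain exceeded blood day 5 by 4.64 ± 0.38 (adjusted p = 5.9e-10), with 4.66 in batch 1 and 4.62 in batch 2. Blood day 1 replicate 2, the highest, also held the most platelet genes (5.85% of the library) and the most choroid plexus genes of any blood library (0.156%). The blood day 1 mean was 18667 with it and 11826 without it. Its part in the Apoe level was not tested.

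Lpl (chr8:68880491-68907448, plus strand), lipoprotein lipase, which releases fatty acids from lipoproteins, was near the limit of detection in culture. Its culture values were 19.9, 1.83, 3.30, 0 and 0, from 14 reads in all. Blood day 1 had 12.4, 49.0 and 191, and blood day 5 had 0, 146 and 183, so both overlapped culture. Brain had 861, 4416 and 12750, above every other library. Lpl rose by 4.03 ± 1.19 in blood day 1 (adjusted p = 0.0122), 4.23 ± 1.19 in blood day 5 (0.0083) and 10.41 ± 1.19 in brain (1.1e-07). Within a batch the blood day 1 rise missed the threshold (2.60, adjusted p = 0.120 in batch 1; 5.87, adjusted p = 0.0631 in batch 2), as did the blood day 5 rise in batch 2 (4.82, adjusted p = 0.104). The batch 2 culture libraries had no Lpl read, so the pseudocount sets those differences. Brain exceeded blood day 5 by 6.18 ± 1.13 (adjusted p = 7.6e-05), by 4.56 and 7.80 in the batches. Without blood day 5 replicate 6, which had no Lpl read, the blood day 5 rise over culture was 5.33 and brain exceeded blood day 5 by 5.02. Without culture replicate 1 the rises were 4.67, 4.87 and 11.05 in blood day 1, blood day 5 and brain.

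Abca1 (chr4:53030787-53159895, minus strand) moves cholesterol and phospholipid out of the cell onto apolipoproteins and is a target of liver X receptors. Its culture values were 95.7, 53.0, 42.9, 10.2 and 85.7. The values were 206, 280 and 541 in blood day 1, 291, 613 and 917 in blood day 5, and in brain 1382, 4519 and 10740. Neither blood group overlapped culture, and brain overlapped neither. Abca1 rose by 2.71 ± 0.57 in blood day 1 (adjusted p = 0.00078), 3.52 ± 0.57 in blood day 5 (4.0e-05) and 6.55 ± 0.57 in brain (1.6e-09). Brain exceeded blood day 5 by 3.03 ± 0.54 (adjusted p = 5.9e-05), by 3.82 in batch 1 and 2.24 in batch 2. Without culture replicate 4, the lowest, the rises over culture were 2.12, 2.93 and 5.96.

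Gpnmb (chr6:49036546-49070929, plus strand), a transmembrane glycoprotein of lysosome-rich phagocytes, had the steepest difference from culture to brain of the 9 members. Culture values were 0, 1.83, 1.65, 3.39 and 42.8, with 58 of 65 reads in replicate 5. In blood it was at 85.5, 184 and 873 on day 1 and at 85.1, 221 and 684 on day 5. Brain had 11780, 39404 and 73038, and no range overlapped culture. Gpnmb rose by 5.61 ± 0.77 in blood day 1 (adjusted p = 5.2e-06), 5.71 ± 0.77 in blood day 5 (3.9e-06) and 13.06 ± 0.77 in brain (2.3e-12). It ranked 36 of 15268 genes by the brain difference from culture. Brain exceeded blood day 5 by 7.36 ± 0.73 (adjusted p = 1.4e-08), by 7.83 in batch 1 and 6.89 in batch 2. Against culture, batch mattered more: the blood day 1 rise was 7.35 in batch 1 and 3.32 in batch 2. The culture mean was 9.94 with replicate 5 and 1.72 without it, and the blood day 1 mean was 290 with replicate 2 and 173 without it. Without culture replicate 5 the rises were 6.55, 6.64 and 14.00 in blood day 1, blood day 5 and brain.

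Axl (chr7:25757273-25788705, minus strand), a TAM receptor tyrosine kinase that binds phosphatidylserine on dying cells through GAS6, had the smallest difference from culture to brain of the 8 members that rose. Culture values were 738, 720, 736, 601 and 736. In blood day 1 it was at 275, 325 and 678, blood day 5 had 323, 548 and 1121, and brain had 2641, 4379 and 6686. Every brain library lay above all other libraries. Axl rose in brain by 2.67 ± 0.32 over culture (adjusted p = 2.2e-07) and by 3.01 ± 0.30 over blood day 5 (1.9e-08), the latter by 3.85 in batch 1 and 2.18 in batch 2. It fell in blood day 1 by 0.98 ± 0.32 (adjusted p = 0.0230), though the ranges overlapped. That call was lost when library totals were made equal (adjusted p = 0.0568), within either batch (0.10 and 0.0741) and with the closest culture and brain libraries averaged (0.104). The libraries averaged were culture replicates 1 to 3, and brain replicates 1 and 3. In blood day 5 the difference from culture was -0.34 ± 0.32 (adjusted p = 0.483; 95% interval -0.96 to 0.29), with the opposite sign under equal library totals (0.025) and in batch 2 (0.30).

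Clec7a (chr6:129461591-129472779, minus strand) encodes dectin-1, a receptor for fungal glucans that signals through SYK. GENCODE M21 lists the gene as a polymorphic pseudogene. Culture values were 128, 45.7, 23.1, 50.1 and 0. Blood day 1 had 192, 1114 and 2234, blood day 5 had 976, 2157 and 2915, and brain had 1763, 2277 and 4579. All transferred libraries were above culture, and brain overlapped both blood groups. Clec7a rose by 5.18 ± 0.84 in blood day 1 (adjusted p = 4.3e-05), 6.41 ± 0.84 in blood day 5 (2.7e-06) and 6.77 ± 0.84 in brain (3.7e-07). Culture replicate 5, with no read, weighed on these sizes: without it they were 3.93, 5.15 and 5.52, all still called. Without culture replicate 1, the highest, they were 5.77, 6.99 and 7.36. Batch 1 gave 3.84, 4.80 and 5.55, and batch 2 gave 7.05, 8.53 and 8.52. Brain and blood day 5 differed by 0.37 ± 0.80 (adjusted p = 0.747; 95% interval -1.20 to 1.93). Dendritic cell genes, which include no member, made up 1.03 to 2.34% of the blood day 5 libraries and 0.0774 to 0.162% of the brain libraries. That list includes the MHC class II presentation genes Cd74, H2-Ab1 and H2-Aa, which are not limited to dendritic cells. B cell genes made up 0.344 to 1.08% of the same blood libraries. The part of either cell type in the Clec7a and Tyrobp levels was not tested.

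Cst7 (chr2:150570415-150578944, plus strand) encodes cystatin F, an inhibitor of lysosomal cathepsins made by phagocytes in this state and by cytotoxic lymphocytes. It was the 1 member that fell in all 3 transferred groups. Culture values were 15773, 14709, 15572, 29912 and 16449. Blood day 1 had 3167, 3825 and 4491, blood day 5 had 2351, 3045 and 4284, and brain had 1706, 2052 and 5652. Every culture library was above all transferred ones. Cst7 fell by 2.23 ± 0.29 (adjusted p = 2.7e-06) in blood day 1, by 2.52 ± 0.29 (4.4e-07) in blood day 5 and by 2.82 ± 0.29 (2.3e-08) in brain. Brain and blood day 5 differed by -0.29 ± 0.28 (adjusted p = 0.421), with -0.84 in batch 1 (adjusted p = 0.0299) and 0.26 in batch 2 (0.678). With equal library totals the brain was lower by -0.69 (adjusted p = 0.0374). Natural killer cell genes summed to 2.14 to 8.34% of culture libraries, 0.287 to 2.30% of blood libraries and 0.0320 to 0.237% of brain libraries. In culture Gzma and Prf1, which encode a granzyme and perforin, carried most of that sum. They were the 2 of 8 tested genes that fell in each blood group, while 5 rose in each, Klrb1c for example from a mean of 252 in culture to 16825 in blood day 1. In brain 1 was higher and 4 were lower than in culture, with the shares over all genes as given above. The higher gene was Fcgr3, an Fc receptor chain also listed among the phagocytic receptors below. Fcgr3 carried most of the summed count of these genes in brain, with a mean of 23112 beside sums of 6927 to 67080. Culture replicate 4 had the highest Cst7 value and the lowest summed share of these genes. Their part in the Cst7 level was not tested.

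**Figure D3:**
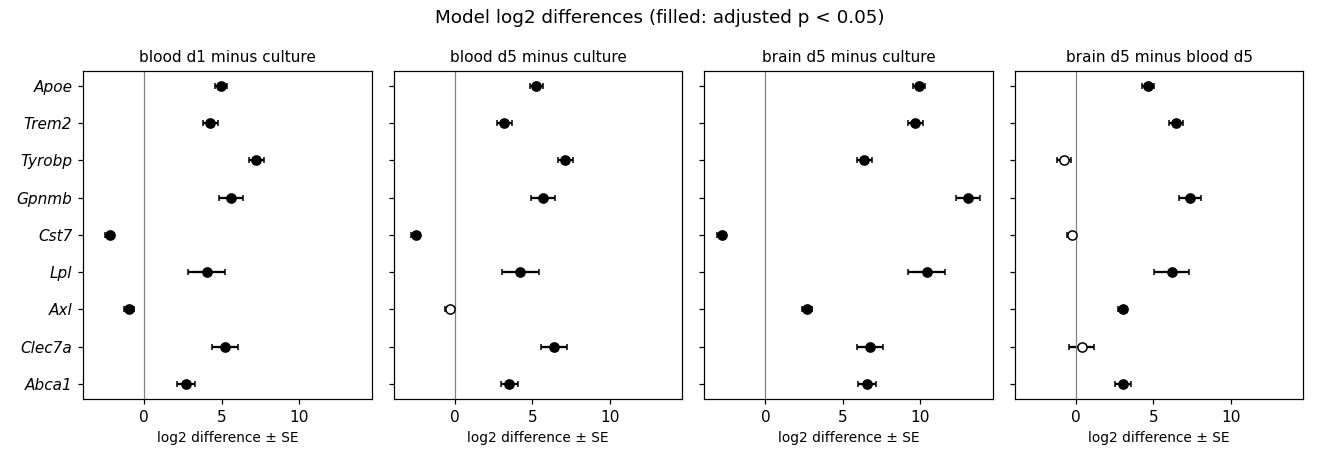
Model differences on the log2(value + 1) scale with SE for each gene in 4 comparisons, filled where adjusted p was below 0.05. Cst7 lay below 0 against culture in all 3 transferred groups, and Tyrobp, Cst7 and Clec7a were not called between brain and blood day 5.

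The order of the members differed between groups. Per kilobase of the longest protein-coding transcript, Cst7 led culture at a mean of 18745 ± 6510 (SD, n = 5), above Tyrobp at 439 ± 272 and Apoe at 355 ± 119, and the latter pair overlapped. In blood day 5 Tyrobp led at 54240 ± 15539 (SD, n = 6), followed by Apoe at 13228 ± 3362, Cst7 at 3237 ± 908 and Clec7a at 920 ± 319, with no overlap between these neighbours. Trem2, Axl, Gpnmb, Abca1 and Lpl followed, each overlapping the next. Blood day 1 had the same first 4 genes, with Tyrobp and Apoe overlapping.

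In brain Apoe led at 359180 ± 192560 per kilobase (SD, n = 6) and did not overlap Tyrobp at 42844 ± 41297. From Tyrobp on, through Trem2 at 14821 ± 9203 and Gpnmb at 11361 ± 5409, every neighbour overlapped. Cst7 (2843), Lpl (1256), Clec7a (1178), Axl (1111) and Abca1 (554) completed the order. With the length of all annotated exons in place of the transcript, Gpnmb came before Trem2 and Lpl came last in brain. In Trem2 the annotated exons total 4946 bases and the transcript 1088.

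No member was called between the blood days. From day 1 to day 5, 0 members rose and 0 fell by limma, where 0.105% of all genes were called, 0.0982% higher and 0.00655% lower. At an unadjusted p below 0.05 there were 2 members, Trem2 and Axl, and 1167 genes in all. Over all genes edgeR called 5 higher and 0 lower and DESeq2 called 65 and 68, and neither called a member. The groups of all 9 members overlapped. Trem2 differed by -1.05 ± 0.47 (adjusted p = 0.624; 95% interval -1.98 to -0.13) and Axl by 0.64 ± 0.30 (0.646; 0.04 to 1.24). For Lpl the interval ran from -2.01 to 2.42, and for Clec7a from -0.34 to 2.79, so differences of several fold remain within the error of these genes.

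The members did not all peak in the same brain library. Replicate 6 was highest for Tyrobp (5.35 times the brain median), Lpl (2.89), Cst7 (2.75), Trem2 (2.56), Apoe (2.41) and Clec7a (2.01). The homeostatic microglia genes were also highest there, at 2.67 times their median. Replicates 1 and 3 were highest for Abca1 (2.38 and 2.36 times) and Axl (1.52 and 1.53 times). These libraries were also closer to each other in recovered reads than any other brain pair, with a chi-square per degree of freedom of 10.1 against 348 to 786. Replicate 2 was lowest for Lpl (0.195 times) and Abca1 (0.306 times) and highest for Gpnmb (1.85 times). It also had the highest share of choroid plexus genes, 7.94%. Replicate 5 was lowest for Gpnmb, at 0.299 times the median. These are single libraries, and which cells carried each transcript was not tested.

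**Figure D4:**
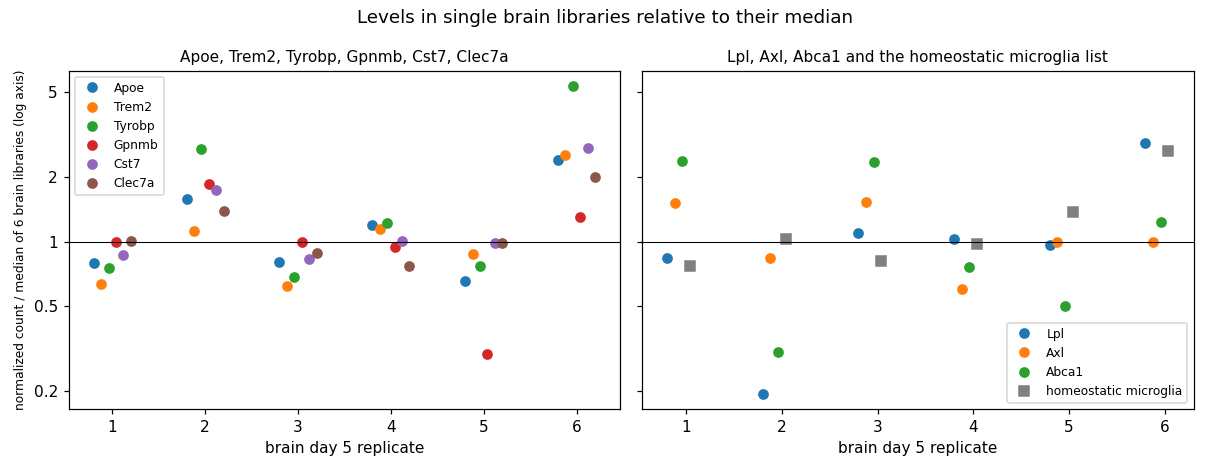
Normalized counts in the 6 brain-labelled libraries divided by their median (log axis), for the 9 genes and, as grey squares, the summed homeostatic microglia genes. Replicate 6 was highest for 6 of the genes, up to 5.35 times the median for Tyrobp, while replicates 1 and 3 were highest for Abca1 and Axl.

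Other genes of the receptor pathway were more often lower than higher in brain when set against blood day 5. Of 16 tested TREM2 and DAP12 signalling genes, 7 rose and 1 fell in blood day 1, and 8 rose and 1 fell in blood day 5. In brain 7 were higher and 4 lower than in culture, and 1 was higher and 7 lower than in blood day 5. Over all genes, 37.5% were higher and 11.7% lower in brain than in culture, and 33.6% and 14.3% than in blood day 5. Against culture, 18.1% were higher and 14% lower in blood day 1, and 19.6% and 11.4% in blood day 5. These shares also apply to the lists that follow. The 7 of 16 higher in brain than in culture is near the share over all genes. The median difference between brain and blood day 5 was -0.73, beside 0.47 for all genes. Ptpn6, the phosphatase SHP-1, rose from 281 ± 353 (SD, n = 5) in culture to 19408 ± 3390 in blood day 5 (SD, n = 6; difference 7.98, adjusted p = 4.1e-06) and had 5279 ± 2976 in brain, where the difference from blood day 5 was -2.09 ± 1.03 (adjusted p = 0.101). Vav1, a guanine nucleotide exchange factor, fell by 0.99 ± 0.25 from blood day 5 to brain (adjusted p = 0.0019). Lat2, an adaptor, fell there by 1.21 ± 0.40 (0.0145), and Inpp5d, the phosphatase SHIP1, had a difference of -0.66 ± 0.39 (0.179). The 1 higher and 7 lower became 3 and 6 without the libraries that stood apart. The count of 7 lower genes became 4 without blood day 5 replicate 5, without blood day 5 replicate 6, without brain replicate 2 or in batch 2 alone. Library quality weights raised the 7 higher in blood day 1 than in culture to 11.

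Other disease-associated microglia genes were mostly higher in brain. Of 28 tested, 22 were higher and 4 lower in brain than in culture (median 4.54), and 20 were higher and 3 lower than in blood day 5 (median 2.59). In blood, 14 rose and 5 fell by day 1, and 13 rose and 5 fell by day 5. Batch 2 alone gave 7 rises in place of 14 on day 1. The cathepsin Ctsd was at 90421 ± 34716 in culture, 60997 ± 11607 in blood day 5 and 631327 ± 306043 in brain, a rise of 3.26 ± 0.38 over blood (adjusted p = 1.7e-07). Ctsb, another cathepsin, rose by 3.61 ± 0.36 (1.2e-08). Spp1, osteopontin, had 346518 ± 357014 in culture, 372 ± 99.8 in blood day 5 and 169884 ± 171949 in brain, and brain against culture did not pass the threshold (-1.13 ± 0.69, adjusted p = 0.184). Fth1, ferritin heavy chain, rose in both blood groups and brain over culture, and brain against blood day 5 gave 1.02 ± 0.44 (0.0585).

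Lipid handling genes were also mostly higher in brain. Of 29 tested, 17 were higher and 1 lower in brain than in culture, and 20 were higher and 1 lower than in blood day 5 (median 1.90). The gene lower in both was Pparg, a lipid-sensing nuclear receptor. Other scalings called 3 or 4 lower there. In blood, 12 rose and 7 fell by day 1, and 13 rose and 6 fell by day 5. Apod, apolipoprotein D, was at 12.6 ± 20.9 in culture, 54.4 ± 45.3 in blood day 5 and 53193 ± 18900 in brain, a rise of 10.24 ± 1.01 over blood (adjusted p = 1.2e-08). Clu, clusterin, rose over culture in all 3 transferred groups, with 2.28 ± 1.28 between brain and blood day 5 (0.152). Npc2, which moves cholesterol out of lysosomes, fell in both blood groups by 1.55 ± 0.28 and by 1.94 ± 0.28 and had -0.26 ± 0.28 in brain against culture (adjusted p = 0.463).

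Phagocytic and pattern receptors (23 tested) had 19 higher and 1 lower in brain than in culture, and 12 higher and 3 lower than in blood day 5. Blood day 1 had 10 higher and 1 lower than culture, and blood day 5 had 16 and 1. Without the libraries that stood apart the 3 lower in brain than in blood day 5 became 5, and batch 2 alone gave 1. In blood day 1 DESeq2 called 16 higher in place of 10, and library quality weights 17. Fcgr3, an Fc receptor chain, rose over culture by 6.81 ± 0.49 in blood day 5 and by 8.19 ± 0.49 in brain (adjusted p = 4.6e-10 and 3.4e-12). Fcer1g, an adaptor akin to TYROBP, rose by 4.31 ± 0.49 and 3.50 ± 0.49 (3.6e-07 and 2.1e-06) and, like Tyrobp, was not called between brain and blood day 5 (-0.81 ± 0.47, adjusted p = 0.164). Itgb2, the common chain of leukocyte integrins including the partner of CD11c, fell by 2.75 ± 0.26 from blood day 5 to brain (6.6e-09). Lgals3bp rose there by 1.48 ± 0.40 (0.0040).

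The resting microglia genes, which fall in the disease-associated state, were higher in brain as well. Of 15 tested, 13 were higher and 1, Selplg, lower than in culture, and 12 were higher and 1 lower than in blood day 5. Csf1r, the receptor for colony-stimulating factor 1, was at 214 ± 113 in culture, 7110 ± 1840 in blood day 5 and 53655 ± 36038 in brain. Fcrls rose by 9.18 ± 0.84 over blood day 5 (adjusted p = 3.4e-09). Relative to the summed resting genes, Trem2 was at 0.00184 to 0.00953 in blood libraries and 0.0384 to 0.0710 in brain libraries, and Gpnmb at 0.000938 to 0.00821 and 0.0370 to 0.306. The ranges did not overlap for either gene. The list sum is dominated by its abundant genes. Selplg carried most of the sum in blood, at means of 52541 on day 1 and 50373 on day 5, against 13329 in brain. The blood ratios are thus lower than they would be without Selplg.

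The genes whose levels tracked each member most closely over the 23 libraries, by Pearson correlation of log2(value + 1), are given as a description. All points share the 4 groups, so the values reflect differences between groups. Lgmn, Trf and Gpx3 followed Apoe (0.992, 0.986 and 0.984), and Tmem86a, Gstm5 and Ldhb followed Trem2 (0.986, 0.978 and 0.978). Spi1, which encodes the myeloid factor PU.1, was closest to Tyrobp (0.979), ahead of Vamp5 and Fas (both 0.976). C1qc, a complement chain, was closest to Gpnmb (0.978), with Tmem86a (0.971) and Plod1 (0.970) next. Capg, Lgals3 and Mvd were closest to Cst7 (0.948, 0.945 and 0.944), and Tbc1d9, Ahcyl2 and Nrp2 to Lpl (0.936, 0.932 and 0.929). Axl was nearest to Dcc, Sall3 and Ism1 (0.951, 0.949 and 0.949), Clec7a to Pla2g7, Oasl2 and Cd302 (0.972, 0.971 and 0.963), and Abca1 to Cd180, Tmcc3 and Il6st (0.965, 0.962 and 0.950).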

How the data were processed

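Libraries of poly-A RNA, made with random primers, gave paired reads of 150 bp, per the labels' protocols. The submitters' processing notes name fastp, HISAT2 2.0.5 and mm10. Counter, annotation and strand setting were not given in the sources used here. Signal values as deposited, which the authors name normalized counts, are gene reads divided by a factor per library, per the file headers and values: 100% of values were whole reads within 0.1 read. Depth was 11.6 to 58.1 M reads per library.

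The 15268 genes with 10 or more normalized counts in 5 or more libraries were tested as log2(value + 1) with limma 3.58.1 (R 4.3.3; trend and robust), all 23 libraries, group plus batch, two-sided, Benjamini-Hochberg threshold 0.05. The script was tested on simulated data. Alternatives used edgeR 4.0.16 and DESeq2 1.42.0 on recovered reads, other pseudocounts, filters and scalings, single batches, a replicate block, and leaving out libraries. Levels between genes were compared per kilobase of the longest protein-coding transcript of GENCODE M21, chosen after seeing the data. Symbols of 19931 of 19945 genes matched GENCODE M21.

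The members, lists and tests were chosen with earlier results of these data known. The text names all members. For each related list it gives counts and values for genes among the 4 tested with the highest mean, and for each member the 3 closest genes by correlation. Other genes named in the text (the markers Klrg1, Ptprc, Il1rl1 and Sall1, and Pparg and Selplg) were chosen after their values were seen. A withheld item is not reported here.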

Additional observations from a re-analysis of the deposited data

Results flagged for a closer look

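In 7 of 36 member and group combinations the highest or lowest library lay further from its nearest neighbour than Dixon's 95% limit allows. Chance alone flags about 1 in 20. Blood day 1 replicate 2 was the highest of its group for Apoe (52868 normalized counts, the others 8336 to 15719) and for Axl (678, the others 275 to 348). Its normalized total was also the highest of the group. As a share of the library its Apoe was still highest, at 0.116% against 0.0472 to 0.0778%. Its Axl share was the lowest of the group, at 0.00149% against 0.00154 to 0.00176%. Blood day 5 replicate 6 was highest for Apoe (28188, the others 15967 to 17925) and lowest for Lpl (0, the others 40.5 to 183). Brain replicate 5 was lowest for Gpnmb (11780, the others 37157 to 73038). Culture replicate 4 was highest for Cst7 (29912, the others 14709 to 16449) and lowest for Axl (601, the others 720 to 738). These culture flags rest on 5 libraries, of which replicates 1 to 3 were close to each other, as given above.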

How the results depend on the processing

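Of 32 single-gene differences that passed the threshold, 29 kept their direction and their call under all 16 alternatives and with each of the 23 libraries left out in turn, and none changed sign. The other 3 were Axl and Lpl in blood day 1 and Lpl in blood day 5, all against culture, as given above. The count of members lower in blood day 1 than in culture went from 2 to 1 with equal library totals, in batch 1, in batch 2 and with the closest libraries averaged. Library quality weights raised the count lower in blood day 5 than in culture from 1 to 2, through Axl (-0.68). The count lower in brain than in blood day 5 went from 0 to 2 with equal library totals (Tyrobp and Cst7) and to 1 in batch 1, and ranged from 0 to 1 with libraries left out, 1 being without brain replicate 6. The cause was not tested.

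Differences that changed sign were all uncalled. Against culture in blood day 5, Axl was 0.025 with equal library totals and 0.30 in batch 2. Between brain and blood day 5, Clec7a was -0.037 with equal totals, -0.034 with edgeR and -0.0091 in batch 2, and Cst7 was 0.26 in batch 2. Between the blood days, batch 1 gave -0.43 for Apoe, -0.59 for Gpnmb, 0.017 for Cst7 and -0.14 for Axl, and batch 2 gave -1.05 for Lpl. There Tyrobp was 0.16 with equal totals and 0.032 without the libraries that stood apart, Lpl -0.61 without them, and Gpnmb -0.055 with DESeq2. With libraries left out in turn, Lpl ranged from -0.24 to 1.36, Gpnmb from -0.25 to 0.54 and Tyrobp from -0.24 to 0.00083. Equal totals moved the median of all genes between brain and blood day 5 from 0.47 to 0.08, and TMM scaling to 0.18. With equal totals 4383 genes were higher and 2978 lower there, and with edgeR 4141 and 2816, against 5123 and 2183. In blood day 5 against culture, equal totals gave 3662 and 1154, against 3000 and 1748. In brain against culture, edgeR gave 4784 and 2746, against 5733 and 1780. Library quality weights called 201 higher and 156 lower between the blood days, against 15 and 1.

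Replicate numbers gave no clear pairing of libraries. Correlations of deviations were -0.104 to 0.189 for the same number (33 pairs) and -0.167 to 0.12 for different numbers (66 pairs). Of the 23 libraries, 11 correlated best with their own number. Correlations this low cannot settle whether libraries of the same number share a source. A replicate block changed no member count, with 8 higher and 1 lower in brain than in culture. Low counts of Lpl (14 reads) and Gpnmb (65 reads) in culture limit the size of their differences.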

Other observations

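Among the 6 brain-labelled libraries alone, after subtracting batch means, the gene closest to each member was Lamp2 for Apoe (r = 0.999), Ctsl for Trem2 (0.999), Dctpp1 for Tyrobp (0.999), Rsl24d1 for Gpnmb (1.00), Crlf3 for Cst7 (1.00), Atp2b1 for Lpl (0.999), Exoc5 for Axl (1.00), Ywhah for Clec7a (0.999) and Gbgt1 for Abca1 (1.00). With 6 libraries and 15268 genes, values this high are found for every member, and they are given as values only.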
